A study of Mus musculus with 9 samples.

Results

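The genes described here code for the protein machinery of pre-mRNA splicing and for its partners, the heterogeneous nuclear ribonucleoproteins (hnRNPs), in mouse CD4+ T cells. They were taken by name: gene symbols that begin with Srsf, Prpf, Snrp, Sf3a, Sf3b, U2af or Hnrnp, each read from its RefSeq row of highest total, which gave 68 of the 25160 genes in the count table. By class these were 11 SR proteins, 20 hnRNP proteins, 12 Sm and snRNP proteins, 12 proteins of SF3A, SF3B and U2AF, and 13 PRPF proteins. A further name that fits, ending in -ps, was left out.

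In the study, naive CD4+ T cells were sorted from spleens of C57BL/6 mice and kept on plates coated with 1 µg/ml of an antibody to CD3e, a chain of the T cell receptor complex, and with 19 µg/ml of a further antibody. The 3 groups were wild-type cells on anti-CD40L, cells from mice lacking CD40L in their T cells on an isotype control antibody, and wild-type cells on the isotype antibody, with 3 libraries each. CD40L is the ligand of CD40 that activated CD4+ T cells display, and the series title ties it to T cell polarization and to RACK1. All 3 groups therefore had the CD3e stimulus, and unstimulated cells were not analysed here. The genotype label of the deleted animals reads only cre, and neither the Cre driver nor the time in culture was stated in the sources used here. The labels do not say whether replicate libraries stem from different mice or cultures, so the p-values here reflect only how far these libraries spread, which may be technical.

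Splicing removes introns from pre-mRNA in the spliceosome. Sm proteins form a ring on the small nuclear RNAs, SF3A, SF3B and U2AF mark the branch point and the 3′ splice site, and PRPF proteins assemble and rearrange the complex. SR proteins bind exons and favour their inclusion, while many hnRNP proteins bind silencer elements and oppose it. In T cells, stimulation through the receptor is known to change the splicing of many transcripts, with CD45 (Ptprc), whose variable exons are skipped through Hnrnpll, as the textbook case.

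Total counts were 5316482 to 15565711 per library. Anti-CD40L replicate 3 had the lowest total and a count for 11673 genes, against 14290 to 17428 genes in the other libraries. This library was far from the rest on principal component 1 of all genes (54% of the variance), at -86.96 against -10.22 to 19.1 in the others, and on that over the members, at -2.87 against -0.40 to 1.08. The targeted gene did not follow its label: Cd40lg was at 145, 136 and 150.2 CPM (counts scaled to library size) in the libraries labelled KO, against 142, 154 and 189 CPM in the wild-type isotype libraries (log2 difference -0.17 ± 0.13 SE, edgeR adjusted p = 0.935), and which part of the gene was deleted was not stated in the sources used here. The 8 CD4+ T cell markers examined summed to 4355 to 4515 CPM in anti-CD40L libraries, 4295 to 4686 CPM in libraries labelled KO and 4429 to 4975 CPM in wild-type isotype libraries. The 10 B cell markers summed to 4.78 to 15.0, 7.98 to 20.3 and 13.4 to 40.4 CPM in the same order of groups, and 2 of the 8 tested were lower in anti-CD40L than in wild-type isotype, among them Fcer2a (edgeR adjusted p = 0.00176). In the same comparison 1 of 8 CD4+ T cell markers (Lat), 1 of 2 tested myeloid markers (Itgam) and 1 of 2 tested stromal markers (Pecam1) were lower too (edgeR adjusted p = 0.0189, 0.0336 and 0.000569). Fcer2a, the highest B cell marker in wild-type isotype, had 5, 15 and 0 counts in anti-CD40L libraries, 6, 4 and 13 in libraries labelled KO and 146, 173 and 48 in wild-type isotype libraries. Markers of monocytes, macrophages and neutrophils summed to at most 15.8 CPM in any library, with Ly6g at 0 in all 9. Those of CD8+ T cells, NK cells and dendritic cells summed to at most 11.9, 27.4 and 2.93 CPM. The stromal list summed to 28.2 to 38.7 CPM in anti-CD40L libraries, 61.1 to 94.8 CPM in libraries labelled KO and 73.4 to 108 CPM in wild-type isotype libraries, nearly all of it Pecam1, which naive T cells also carry. The part of these cells in the results below was not tested.

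Of the 68 genes, 67 passed the expression filter. The exception was Snrpn, the imprinted Sm protein known mainly from brain, with 0, 1 and 0 counts in anti-CD40L libraries, 0, 6 and 5 in libraries labelled KO and 2, 2 and 1 in wild-type isotype libraries. Srsf12 passed at a mean of 0.633, 0.829 and 1.17 CPM in these groups in turn and is little above the filter. The other members had mean levels in wild-type isotype cells between 20.7 CPM (Hnrnph3) and 1600.4 CPM (Hnrnpu).

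Per kilobase of transcript, which could be computed for 55 members, hnRNP proteins led. Hnrnpab stood at 814 ± 67.1 CPM per kilobase in anti-CD40L cells and 683 ± 37.2 in wild-type isotype cells (SD, n = 3 each), and Hnrnpa1 at 788 ± 63.4 and 652 ± 20.2 in the same groups. These neighbours differed by less than the SD of Hnrnpab in both groups, though in wild-type isotype cells by more than that of Hnrnpa1. Hnrnpa2b1 followed at 597 ± 38.6 in anti-CD40L cells and 518 ± 9.49 in wild-type isotype cells. The SR protein of highest level was Srsf2, at 301 ± 21.4 and 274 ± 12.1 CPM per kilobase, and the Sm protein was Snrpb, at 255 ± 46.5 and 233 ± 12.7. Among the 3′ splice site factors U2af2, which binds the polypyrimidine tract, was at 208 ± 2.34 and 222 ± 12.9, and among PRPF proteins Prpf8, the core of the U5 snRNP, was at 154 ± 10.5 and 135 ± 6.18.

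Setting anti-CD40L against isotype in wild-type cells asks what engaging CD40L adds to the CD3e stimulus. In this comparison 11 members rose and none fell, and the 10 named here did so by 1.19-fold (Hnrnpc) to 1.36-fold (Srsf1). The 10 were 3 SR proteins (Srsf1, Srsf3, Srsf10), 4 hnRNP proteins (Hnrnpa1, Hnrnpc, Hnrnpd, Hnrnpu), the Sm protein Snrpe and the PRPF proteins Prpf31 and Prpf38a. A gene is said to have risen or fallen where the quasi-likelihood test of edgeR gave an adjusted p under 0.05 over all 11256 genes tested. The 11 members are 16.4% of the 67 tested, against 2.91% of all genes tested called higher and 5.68% of the 4417 genes with a mean of at least 50 CPM. None of the 67 fell, against 6.46% of all genes called lower, no member of lower level had an unadjusted p under 0.05 in the edgeR fit, and DESeq2 called none lower. The median log2 fold change of members was 0.15, against -0.01 over all genes and 0.04 over genes of at least 50 CPM. Above 0 lay 57 of 67 members (85.1%), against 48.2% of all genes and 56.6% of genes of at least 50 CPM. The 3 anti-CD40L libraries all lay above the 3 isotype libraries in 31 members (46.3%), against 15.4% of all genes and 25.2% of genes of at least 50 CPM. They all lay below in 2 members, Prpf6 and U2af1l4, against 17.2% of all genes.

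**Figure D1:**
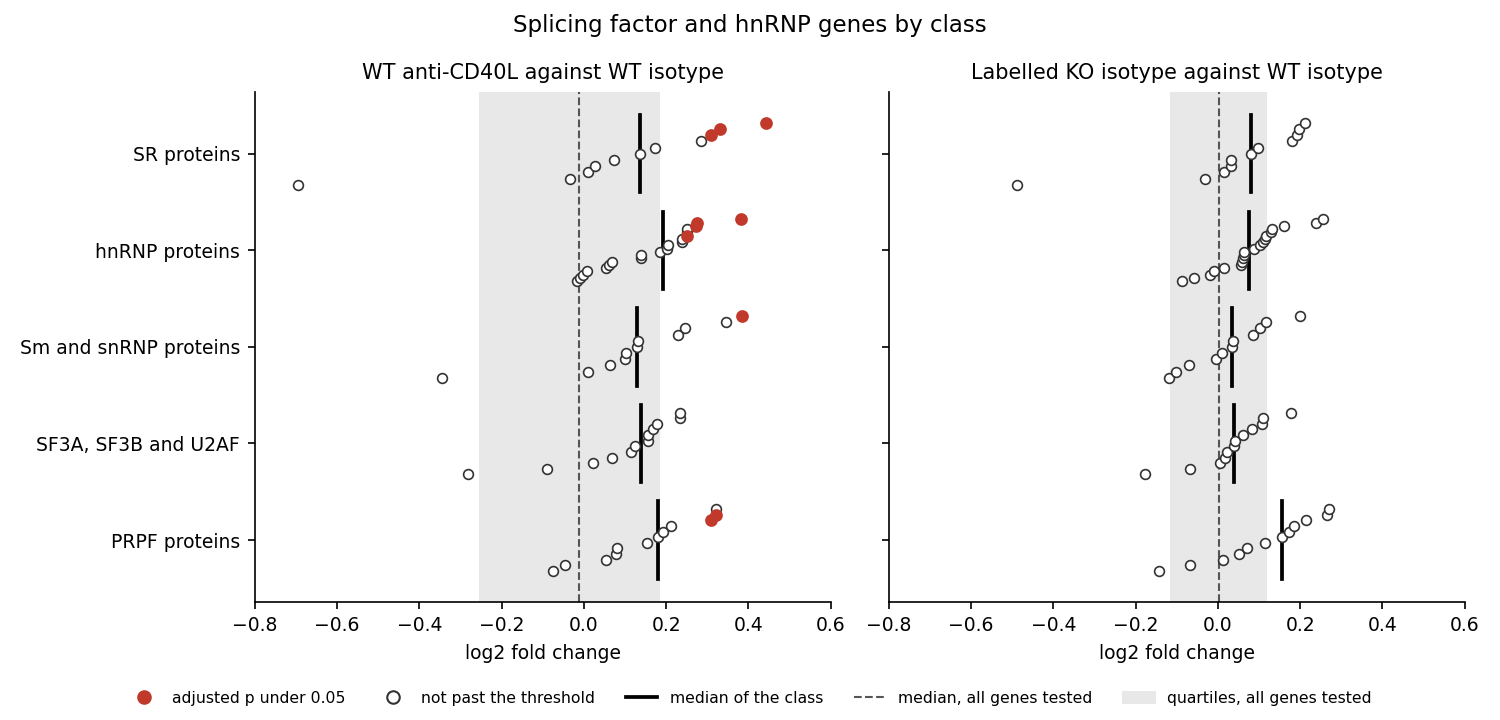
Log2 fold change of 66 of the 67 tested members (points) by protein class, for wild-type anti-CD40L against wild-type isotype (left) and isotype libraries labelled KO against wild-type isotype (right). Black bars mark class medians over all 67, the dashed line and grey band the median and quartiles of all 11256 genes; 10 red points (adjusted p under 0.05) lie at 0.25 to 0.44 on the left and none on the right, and the open point at -0.69 on the left is Srsf12, at about 1 CPM.

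Most of these calls were lost when certain single libraries were left out. Without anti-CD40L replicate 1, or without isotype replicate 1, no member was called (edgeR; 21 and 24 members at an unadjusted p under 0.05, against 28 with all libraries), and 1 was called without isotype replicate 2 (Prpf31) and 1 without isotype replicate 3. With all libraries, 2971 of 11256 genes and 1556 of 4417 genes of at least 50 CPM had an unadjusted edgeR p under 0.05. Without the shallow anti-CD40L replicate 3, 7 members were called. Leaving out replicate 2 labelled KO, which enters this comparison only through the shared spread, filter and scaling, left 2. The number of members above 0 stayed at 55 to 59 of 67 over these 9 fits and their median at 0.13 to 0.19.

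**Figure D2:**
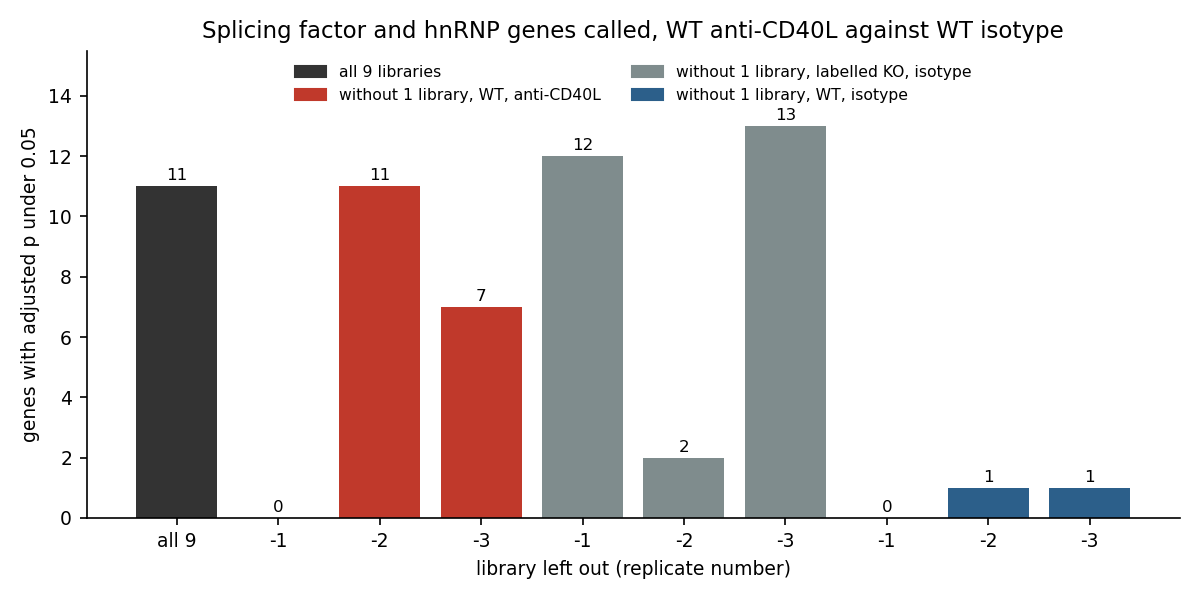
Number of splicing factor and hnRNP genes with an adjusted p under 0.05 in wild-type anti-CD40L against wild-type isotype, with all 9 libraries (11, black bar) and with each library left out in turn (coloured bars, by group of the library). The count runs between 0 and 13, with 0 in the bars without anti-CD40L replicate 1 and without isotype replicate 1.

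Among SR proteins, Srsf1 (NM_001078167, chromosome 11, 88046499 to 88053757, GRCm38), the founding member, which binds exonic enhancers, was at 881, 689 and 741 CPM in the anti-CD40L libraries, against 589, 530.1 and 581 CPM in the wild-type isotype libraries. Every anti-CD40L library lay above every isotype library, and the log2 fold change was 0.44 ± 0.12 (± SE here and for every log2 value; edgeR adjusted p = 0.0414). The libraries labelled KO spanned both ranges, at 553, 607 and 781 CPM, with replicate 3 above anti-CD40L replicates 2 and 3. Srsf3 (NR_036613, chromosome 17, 29032660 to 29043372), the smallest SR protein and an adaptor for mRNA export, was at 623, 547 and 628 CPM in the anti-CD40L libraries, 462, 484 and 521 CPM in the libraries labelled KO and 471, 505 and 475 CPM in the wild-type isotype libraries. Here the libraries labelled KO overlapped wild-type isotype, and anti-CD40L lay above both groups. The log2 fold change over wild-type isotype was 0.31 ± 0.08 (edgeR adjusted p = 0.033). Srsf10 (NM_001080387, chromosome 4, 135855752 to 135869908), known as a repressor of splicing when dephosphorylated, was at 242, 213 and 248 CPM in the anti-CD40L libraries, against 186, 179.7 and 193 CPM in the wild-type isotype libraries, again without overlap (log2 fold change 0.33 ± 0.09, edgeR adjusted p = 0.0327).

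The other 8 SR proteins did not pass the test. Srsf6 came nearest, at 517, 443 and 497 CPM in the anti-CD40L libraries, against 371, 411 and 415 CPM in the wild-type isotype libraries (log2 fold change 0.28 ± 0.09, edgeR adjusted p = 0.0711), and its groups did not overlap. Srsf7, which with Srsf3 serves as an export adaptor, had a log2 fold change of 0.17 ± 0.08 (edgeR adjusted p = 0.179). Srsf5, at 406, 407 and 374 CPM in the anti-CD40L libraries, against 389.6, 412 and 413 CPM in the wild-type isotype libraries, lay near 0 with -0.03 ± 0.07, as did Srsf4 and Srsf11, at 0.03 ± 0.09 and 0.01 ± 0.09.

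SR protein genes are known to limit their own output by including a cassette exon with an early stop codon, whose transcripts are degraded by nonsense-mediated decay. The table held such a form of Srsf3 and Srsf7 as non-coding RefSeq rows (NR_036613 and NR_036615), which GENCODE vM21 types as nonsense-mediated decay transcripts. The exon of Srsf3 spans 456 bases at chr17:29039454-29039909 on the plus strand and that of Srsf7 spans 460 bases at chr17:80204622-80205081 on the minus strand (GRCm38). The stretch of each that ends just after the early stop is given in transcript direction, since it marks the exon by which these rows differ from coding rows, with the stop codon in capitals.
Srsf3, chr17:29039461-29039490, plus strand: atcatgtctcttctcaccaccctcTGAatc
Srsf7, chr17:80205051-80205080, minus strand: tttcttcgtttgagtcagtcgcctTGAttc

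The difference between the row with the extra exon and the highest coding row was used as a rough measure of counts on that exon. How reads were assigned to rows is not known. For Srsf9 such a difference between a non-coding and a coding row lay between -5.5 and 5.0 counts. It was larger for Hnrnpdl, at 34 to 125 counts (1.19% to 2.16% of the non-coding row). For Hnrnpll it was 6 to 30.5 counts (0.55% to 1.815%). Neither of these non-coding rows had a GENCODE vM21 match, and what their difference counts is not known. For Srsf3 the difference was 141, 118 and 22 counts in anti-CD40L replicates 1 to 3, 159.5, 255 and 320 in replicates labelled KO and 196, 140.5 and 123 in wild-type isotype replicates. As a share of the longer row these were 2.03%, 2.19% and 0.669% in anti-CD40L libraries, 3.74%, 3.86% and 3.91% in those labelled KO and 3.73%, 2.64% and 2.97% in wild-type isotype. The share was thus lower in every anti-CD40L library than in any other library, while the gene's total was higher. Its mean was 1.63% ± 0.835 in anti-CD40L, 3.84% ± 0.0847 in libraries labelled KO and 3.11% ± 0.558 in wild-type isotype (SD, n = 3 each). Two-sided exact permutation tests gave p = 0.1 for anti-CD40L against wild-type isotype, for libraries labelled KO against wild-type isotype and for anti-CD40L against libraries labelled KO, which is the smallest p that 3 against 3 allows. Without the shallow anti-CD40L replicate 3, at 0.669%, the other anti-CD40L replicates still lay below all others.

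For Srsf7 the share was 7.32%, 7.21% and 4.51% in anti-CD40L libraries, 7.82%, 8.59% and 8.84% in those labelled KO and 8.47%, 7.03% and 7.35% in wild-type isotype. Anti-CD40L overlapped wild-type isotype (means 6.35% ± 1.59 and 7.62% ± 0.759, exact permutation p = 0.4) and lay below the libraries labelled KO (8.41% ± 0.533, p = 0.1, exact). The rows were chosen after the data had been seen, 12 such tests were made over both genes, and none can pass a correction. Reads of unspliced pre-mRNA could also fall on these exons, and their part was not tested.

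**Figure D3:**
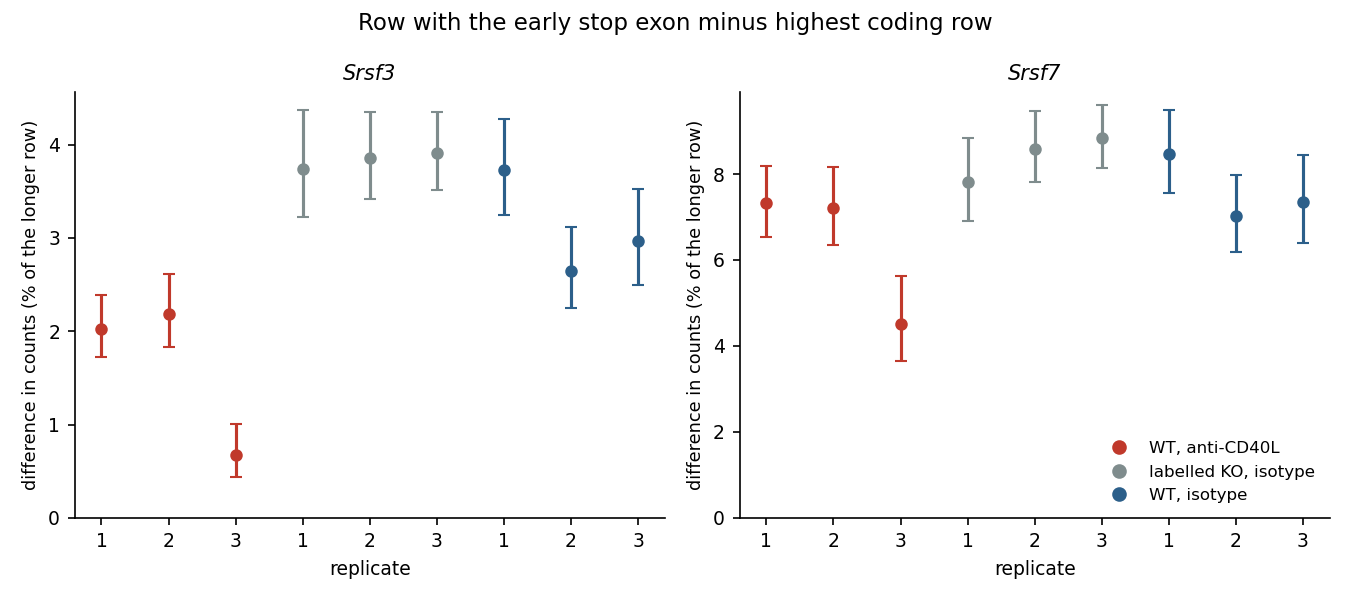
Counts of the RefSeq row with the early stop exon minus those of the highest coding row, as a percentage of the longer row, for Srsf3 (left) and Srsf7 (right), 1 point per library with its 95% Wilson interval, which covers counting error only. For Srsf3 the 3 anti-CD40L libraries lie at 0.669% to 2.19% and the other 6 at 2.64% to 3.91%; for Srsf7 anti-CD40L replicate 3 is lowest at 4.51%.

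Among hnRNP proteins 4 of 20 rose (20.0%, against 2.91% of all genes and 5.68% of genes of at least 50 CPM called higher). Hnrnpa1 (NM_001039129, chromosome 15, 103239943 to 103246698), which binds exonic and intronic silencers and acts against SR proteins in the choice of 5′ splice sites, was at 1647, 1474 and 1413 CPM in the anti-CD40L libraries, against 1295, 1225 and 1232 CPM in the wild-type isotype libraries. All anti-CD40L libraries were higher, by a log2 fold change of 0.27 ± 0.08 (edgeR adjusted p = 0.0469). Hnrnpu (NM_016805, chromosome 1, 178321108 to 178338891), a nuclear matrix protein also known as scaffold attachment factor A, was at 1991, 1830.2 and 1992 CPM in the anti-CD40L libraries, against 1561, 1575 and 1665 CPM in the wild-type isotype libraries, likewise without overlap (0.28 ± 0.07, edgeR adjusted p = 0.0348). Hnrnpc (NM_001360173, chromosome 14, 52073377 to 52104039), which binds uridine tracts in nascent RNA, was at 716, 673 and 744 CPM in the anti-CD40L libraries, against 590.3, 605 and 598 CPM in the wild-type isotype libraries. Its isotype libraries lay within a narrow range below all anti-CD40L libraries (0.25 ± 0.07, edgeR adjusted p = 0.0495, the highest of the 11). Hnrnpd (NM_001077265, chromosome 5, 99955935 to 99979130), also called AUF1, which binds AU-rich elements and directs mRNA decay, was at 513, 418 and 418 CPM in the anti-CD40L libraries, against 366, 325 and 346 CPM in the wild-type isotype libraries. The groups did not overlap, and replicate 1 stood above the other anti-CD40L libraries (0.38 ± 0.11, edgeR adjusted p = 0.0405).

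The hnRNP median was 0.19. In 11 of 20 all anti-CD40L libraries lay above isotype (55.0%, against 15.4% of all genes and 25.2% of genes of at least 50 CPM). Besides the 4 called, these included Hnrnpab (0.25 ± 0.08, edgeR adjusted p = 0.0688), Hnrnph1 (0.25 ± 0.09, adjusted p = 0.0903), Hnrnpr (0.24 ± 0.08, adjusted p = 0.0805) and Hnrnpk (0.20 ± 0.08, adjusted p = 0.117), none past the threshold. Hnrnpll, known to rise on T cell activation and to drive exon skipping in CD45, was at 108, 106 and 130.3 CPM in the anti-CD40L libraries, 118, 119 and 131 CPM in the libraries labelled KO and 97.8, 104 and 111 CPM in the wild-type isotype libraries. The groups overlapped between anti-CD40L and wild-type isotype (0.14 ± 0.10, edgeR adjusted p = 0.382). Its relative Hnrnpl, which binds the same CA-rich elements, had a log2 fold change of 0.05 ± 0.07 (edgeR adjusted p = 0.663). Hnrnpa0, Hnrnpul1, Hnrnpul2 and Hnrnph3 lay within 0.02 of 0. Hnrnpa3 varied most within a group among members above 20 CPM, at 159.5, 141 and 174 CPM in the anti-CD40L libraries, against 187, 102 and 111 CPM in the wild-type isotype libraries. How reads that also align to other copies of a gene were counted was not given in the sources used here. Levels of members with processed pseudogenes, such as Hnrnpa1 and Hnrnpa3, are therefore uncertain.

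Of the Sm and snRNP proteins 1 of 11 tested rose, a count near the background. It is 9.09% of them, against 2.91% of all genes and 5.68% of genes of at least 50 CPM called higher. Snrpe (NM_009227, chromosome 1, 133603871 to 133610280), a subunit of the Sm ring, was at 109, 101 and 90.8 CPM in the anti-CD40L libraries, against 82.1, 77.3 and 72.2 CPM in the wild-type isotype libraries. The groups did not overlap (0.38 ± 0.11, edgeR adjusted p = 0.0431). The other ring subunits did not pass: Snrpd1 had a log2 fold change of 0.23 ± 0.08 (edgeR adjusted p = 0.0886), Snrpf 0.13 ± 0.10, Snrpb 0.13 ± 0.12, Snrpd3 0.10 ± 0.09 and Snrpd2 0.01 ± 0.09. Snrpg was the lone Sm and snRNP protein below 0, at 115, 106 and 56.9 CPM in the anti-CD40L libraries, against 118, 136 and 103 CPM in the wild-type isotype libraries, and its low mean came from anti-CD40L replicate 3 (-0.35 ± 0.20, edgeR adjusted p = 0.29). Of the U2 snRNP proteins, Snrpb2 had 0.34 ± 0.12 (adjusted p = 0.0822), Snrpa1 0.25 ± 0.09 (adjusted p = 0.116), and of the U1 snRNP proteins Snrpc 0.10 ± 0.10 (adjusted p = 0.554) and Snrpa 0.06 ± 0.08 (adjusted p = 0.658), all by edgeR.

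Of the factors of the branch point and 3′ splice site, 0 of 12 were called by edgeR and by DESeq2. Of these, 3 had an unadjusted edgeR p under 0.05 (U2af1, Sf3a3, Sf3a1). So did 2971 of the 11256 genes tested and 1556 of the 4417 genes of at least 50 CPM, so this count does not stand out. The class of 12 had a median of 0.14, and 10 lay above 0 (83.3%). Above 0 were 48.2% of all genes and 56.6% of genes of at least 50 CPM. Sf3b1, the subunit that holds the branch point, was at 971, 853 and 882 CPM in the anti-CD40L libraries, against 862, 788 and 849 CPM in the wild-type isotype libraries (0.12 ± 0.09, edgeR adjusted p = 0.441). U2af1, which reads the AG of the 3′ splice site, was at 137, 125 and 146 CPM in the anti-CD40L libraries, against 114, 120.4 and 112 CPM in the wild-type isotype libraries. Its groups did not overlap (0.23 ± 0.09, edgeR adjusted p = 0.109), as was so for Sf3a3 (0.23 ± 0.10, adjusted p = 0.146), a subunit of SF3A. U2af2, the partner of U2af1, was at 431, 434 and 441 CPM in the anti-CD40L libraries, against 437, 491 and 463 CPM in the wild-type isotype libraries (-0.09 ± 0.07, edgeR adjusted p = 0.468). U2af1l4, a relative of U2af1 of low level, was at 18.4, 19.8 and 18.5 CPM in the anti-CD40L libraries, against 21.2, 21.5 and 26.4 CPM in the wild-type isotype libraries, all anti-CD40L libraries being lower (-0.28 ± 0.14, edgeR adjusted p = 0.221).

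Of 13 PRPF proteins 3 rose (23.1%), of which 2 are described. Called higher were 2.91% of all genes and 5.68% of genes of at least 50 CPM. Prpf31 (NM_027328, chromosome 7, 3629985 to 3642485), which holds the U4/U6.U5 tri-snRNP together, was at 187, 172 and 192 CPM in the anti-CD40L libraries, against 149, 156 and 138 CPM in the wild-type isotype libraries (0.31 ± 0.08, edgeR adjusted p = 0.0256). Prpf38a (NM_172697, chromosome 4, 108564867 to 108579336), which joins with the tri-snRNP, was at 92.9, 86.5 and 80.1 CPM in the anti-CD40L libraries, against 69.3, 69.9 and 69.1 CPM in the wild-type isotype libraries, where the isotype libraries agree within 1 CPM (0.32 ± 0.09, edgeR adjusted p = 0.0408). Prpf8 had a log2 fold change of 0.19 ± 0.08 (edgeR adjusted p = 0.133) and Prpf39, a U1-associated protein, of 0.32 ± 0.17 (adjusted p = 0.236), neither past the threshold. Prpf6, a bridging protein of the tri-snRNP, lay slightly lower in all anti-CD40L libraries, at 165, 162 and 161 CPM in the anti-CD40L libraries, against 167, 176 and 171 CPM in the wild-type isotype libraries (-0.08 ± 0.08, adjusted p = 0.593).

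**Figure D4:**
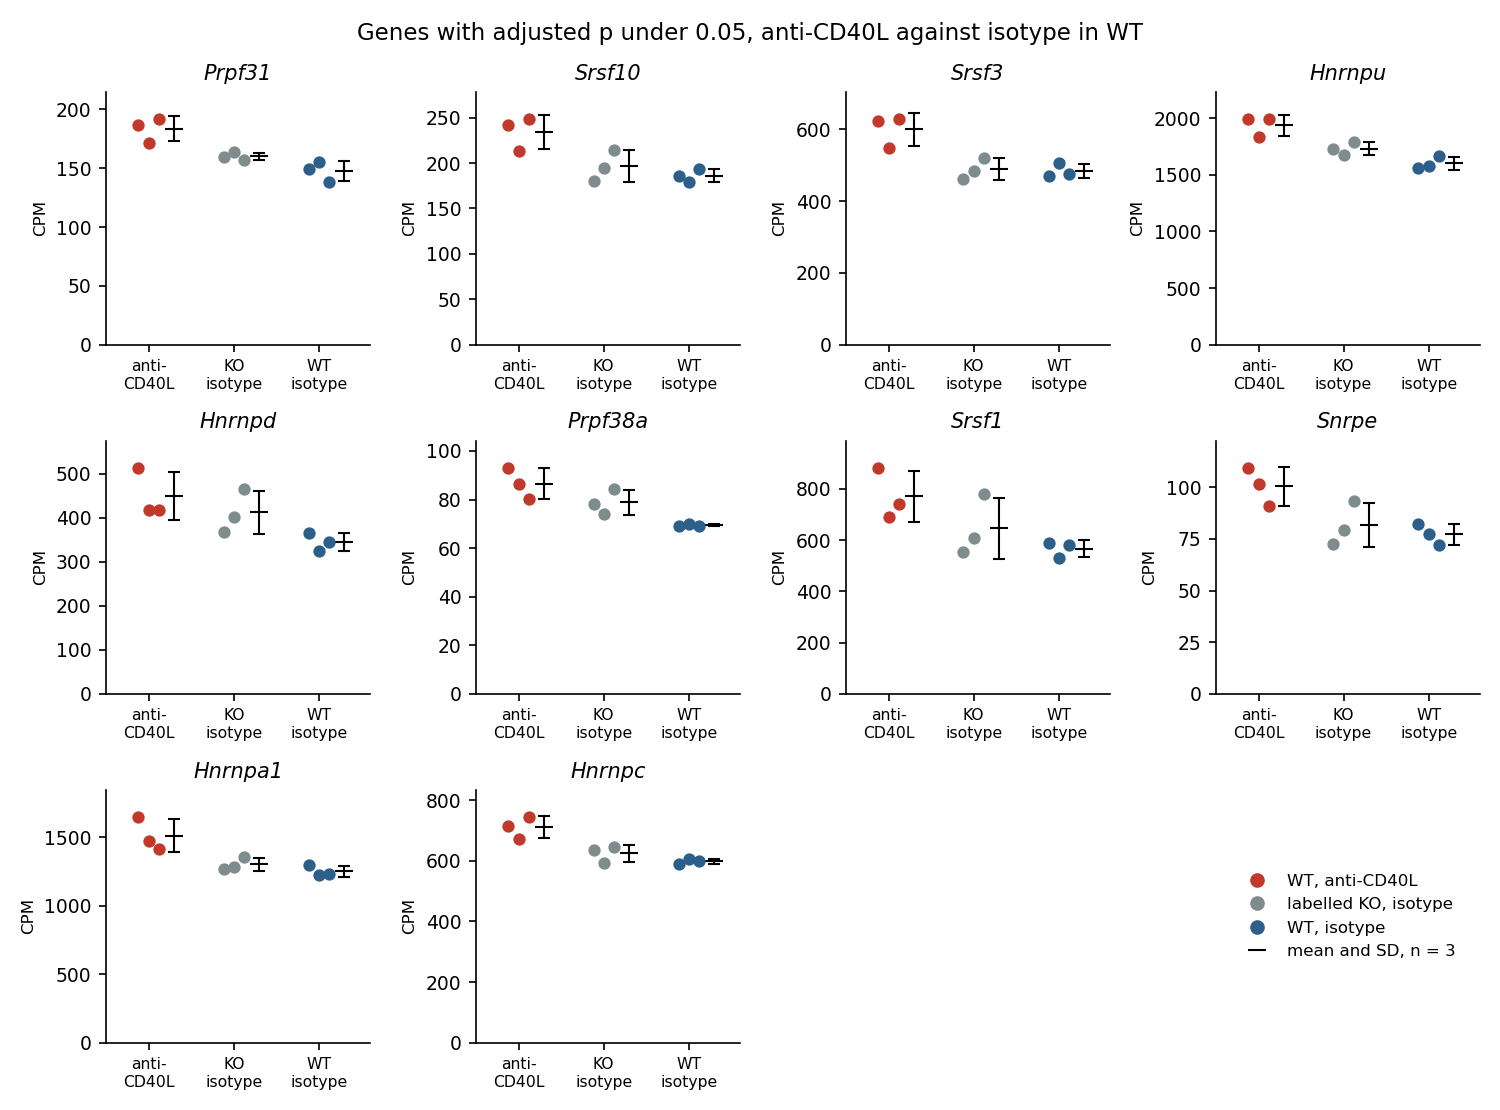
Levels in CPM of 10 members with an adjusted p under 0.05 in wild-type anti-CD40L against wild-type isotype, 1 point per library, with mean and SD (n = 3) beside each group. In each panel the 3 anti-CD40L points lie above the 3 wild-type isotype points, as for Srsf1 at 689 to 881 against 530.1 to 589 CPM. The libraries labelled KO lie between these groups or overlap either or both of them.

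When the libraries labelled KO were set against wild-type isotype, no member and no gene was called by edgeR (0.0% of 11256 genes higher and 0.0% lower). At an unadjusted p under 0.05 there were 649 genes, 6 of them members. DESeq2 called 44 genes and limma-voom with quality weights 38, none of them members. This comparison shares the wild-type isotype libraries with that of anti-CD40L. The members' median log2 fold change was 0.06, against 0.00 over all genes. Above 0 lay 53 of 67 members (79.1%), against 50.6% of all genes and 53.0% of genes of at least 50 CPM. The libraries labelled KO all lay above wild-type isotype in 19 members (28.4%), against 7.61% of all genes and 10.1% of genes of at least 50 CPM, and all below in 2, Hnrnpf and Sf3b5, against 7.62%.

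The 5 members of smallest p all leaned higher. Srsf7 was at 319, 324 and 362 CPM in the libraries labelled KO, against 287, 303 and 287 CPM in the wild-type isotype libraries, without overlap (0.20 ± 0.08, edgeR adjusted p = 0.81). Hnrnpll, given above, had 0.24 ± 0.10 and Snrpd1 0.20 ± 0.08 (both edgeR adjusted p = 0.812). Hnrnpd was at 368, 402 and 466 CPM in the libraries labelled KO, where all 3 lay above wild-type isotype (0.25 ± 0.11, edgeR adjusted p = 0.816), and Prpf38b had 0.27 ± 0.11 (edgeR adjusted p = 0.812). Replicate 3 labelled KO stood above its fellows in Prpf39, at 89.0, 113 and 162 CPM, and in Srsf1.

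Anti-CD40L wild-type libraries against libraries labelled KO also tests whether the preceding differences from wild-type isotype were unequal. Srsf3 alone was called, with a log2 difference of 0.29 ± 0.08 (SE; edgeR adjusted p = 0.0485), and its adjusted p ran between 0.00511 and 0.15 over 19 alternatives, under 0.05 in 9. Of the 9 fits without a single library, the call held in 2, without anti-CD40L replicate 2 and without replicate 3 labelled KO. It is 1.49% of the 67 members, against 1.79% of all genes and 3.35% of genes of at least 50 CPM called higher, and no member was called lower, against 5.04% of all genes (1 member of lower level, U2af1l4, at an unadjusted edgeR p under 0.05, and 0 called lower by DESeq2). By DESeq2, Hnrnpa1 and Hnrnpc were called as well. Groups did not overlap in 13 members with anti-CD40L higher (19.4%, against 10.3% of all genes and 15.3% of genes of at least 50 CPM) and in 3 with it lower (Srsf5, U2af2 and U2af1l4, against 15.9% of all genes). Srsf5 was at 406, 407 and 374 CPM in the anti-CD40L libraries, against 435, 427 and 439 CPM in the libraries labelled KO (-0.13 ± 0.07, edgeR adjusted p = 0.297), so that within the SR family Srsf3 and Srsf5 leaned opposite ways. For the other genes called in wild-type cells the adjusted p here was 0.108 or more, so a difference between anti-CD40L and libraries labelled KO was not shown for them.

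Over the 67 members, group means were ordered anti-CD40L, then libraries labelled KO, then wild-type isotype in 38, and anti-CD40L was highest in 48. How often all genes took this order was not computed, so no background stands beside these counts. Together the 68 genes took 2.45% ± 0.085 of all counts in anti-CD40L libraries, 2.31% ± 0.085 in libraries labelled KO and 2.17% ± 0.04 in wild-type isotype libraries (SD, n = 3 each). The hnRNP genes held 1.24% ± 0.043, 1.15% ± 0.043 and 1.09% ± 0.026 in the same groups, the SR genes 0.378% ± 0.022, 0.355% ± 0.03 and 0.324% ± 0.002. A share of counts is relative, and it also rises where other transcripts fall. Such a fall, more cells of a kind and more RNA per cell cannot be told apart in bulk samples. Relative to the wild-type isotype mean, the median member lay at 0.19, 0.11 and 0.18 on the log2 scale in anti-CD40L replicates 1 to 3 and at 0.06, 0.07 and 0.11 in replicates labelled KO. Genes of at least 50 CPM lay at 0.03 to 0.04 in anti-CD40L libraries and at 0.00 to 0.01 in libraries labelled KO. Anti-CD40L replicates 1 and 3 were the highest of the 9 libraries in 24 and 21 members, but replicate 3 was also the lowest in 9, such as Snrpg. The median coefficient of variation over members was 7.6% in anti-CD40L, 6.44% in libraries labelled KO and 4.48% in wild-type isotype.

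**Figure D5:**
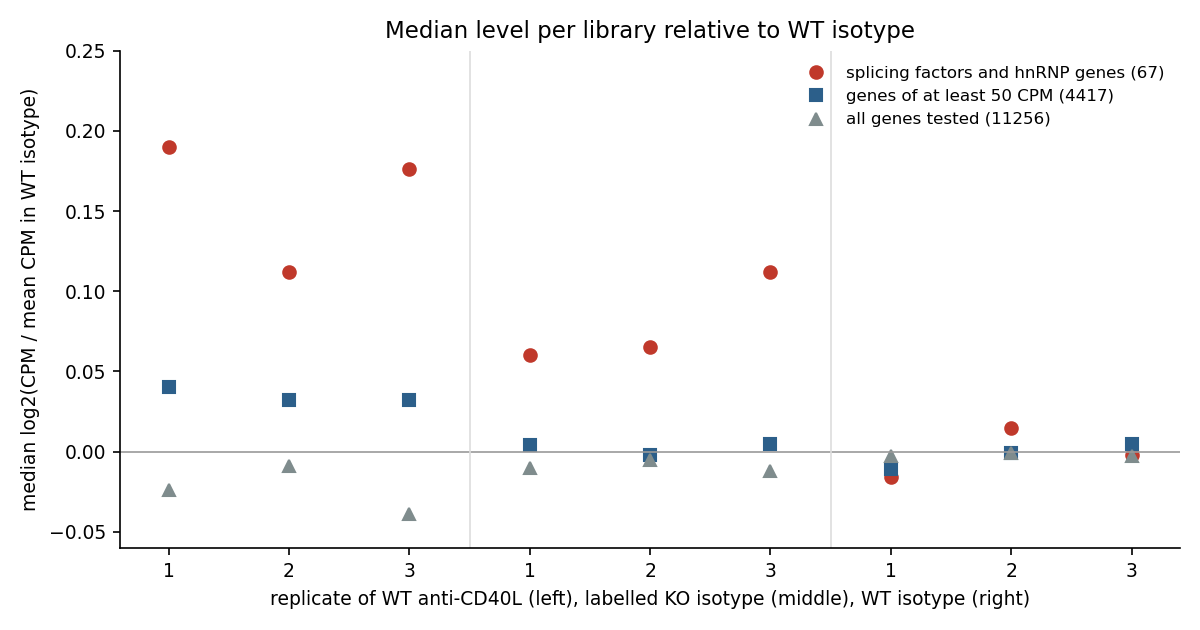
Median over genes of log2 CPM relative to the wild-type isotype mean, per library, for the 67 tested members (circles), genes of at least 50 CPM (squares) and all genes tested (triangles); zero is the wild-type isotype mean. The members lie at 0.11 to 0.19 in anti-CD40L libraries and at 0.06 to 0.11 in libraries labelled KO, above the other gene sets in all 6 libraries.

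Other genes of the splicing pathway, and of protein families and steps related to it, were examined in 8 lists. Each list gave 0 to 2 genes called higher in anti-CD40L against wild-type isotype. These are 0.0% to 11.8% of a list, against 2.91% of all genes and 5.68% of genes of at least 50 CPM, so the counts of most lists are near the background. In the SMN complex and Sm methylation list, which loads Sm rings onto snRNA, 2 of 17 rose: Clns1a, a chaperone of Sm proteins, averaged 183 ± 9.21 CPM in anti-CD40L and 144 ± 3.83 CPM in wild-type isotype (0.35 ± 0.08, edgeR adjusted p = 0.0124), and Strap 294 ± 26.2 and 239 ± 6.15 CPM (0.30 ± 0.09, adjusted p = 0.0473). That list had the highest median of the 8, 0.25. Among other splicing regulators 2 of 39 rose, Khdrbs1 (Sam68), a signal-responsive regulator of splicing (0.30 ± 0.08, edgeR adjusted p = 0.0433), and Tial1 (0.29 ± 0.08, adjusted p = 0.0487). In the same list the cold-inducible protein Cirbp fell, to 17.4 ± 3.18 CPM in anti-CD40L against 27.4 ± 2.81 CPM in wild-type isotype (-0.64 ± 0.16, edgeR adjusted p = 0.026). The helicase Dhx15, which takes apart spent spliceosomes, rose alone among 14 helicases (0.37 ± 0.09, edgeR adjusted p = 0.0289).

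Among 21 SR kinases and SR-related genes, Tra2b, an exon activator, rose (0.42 ± 0.12, edgeR adjusted p = 0.0454), among 13 LSm proteins Lsm12 (0.33 ± 0.09, adjusted p = 0.0399), and among 29 genes of 3′ end processing and export Cpsf2 (0.31 ± 0.09, adjusted p = 0.043). In the edgeR fit none of the 13 further U snRNP and minor spliceosome genes was called (1 at an unadjusted p under 0.05, 0 by DESeq2), with a median of 0.01, nor any of 24 genes of the PRPF19-associated complex, step factors and exon junction complex (7 at an unadjusted p under 0.05, 4 by DESeq2, of which 2 were higher; median 0.08). Over all 11256 genes, 2971 had an unadjusted edgeR p under 0.05, as had 1556 of the 4417 genes of at least 50 CPM. Against the libraries labelled KO, anti-CD40L cells had less Snrnp70, the U1-70K protein (-0.26 ± 0.07, edgeR adjusted p = 0.0367), less Isy1 (-0.42 ± 0.08, adjusted p = 0.00716) and Casc3 (-0.34 ± 0.08, adjusted p = 0.0174), and less Ddx17 (-0.31 ± 0.08, adjusted p = 0.0305) and Nxf1 (-0.27 ± 0.07, adjusted p = 0.046), the mRNA export receptor that Srsf3 and Srsf7 bind. Nudt21, a 3′ end processing factor, was higher (0.37 ± 0.10, edgeR adjusted p = 0.0363), as were Khdrbs1 (0.31 ± 0.08, adjusted p = 0.0473) and Clns1a (0.28 ± 0.08, adjusted p = 0.0432), while Cirbp was lower (-0.67 ± 0.16, adjusted p = 0.0242).

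Since members leaned the same way, the 250 bases before their RefSeq starts (GRCm38.p6) were searched on both strands for short words, with 59 of 68 members matched. A gene was counted where any of its windows held the word. The 59 members had 80 windows, and all 27025 genes with a window had 32851. More windows give more chances of a hit, and the shares below were not adjusted for this. The CCAAT box (CCAAT, or ATTGG on the other strand) stood in 29 of 59 members (49.2%) and in 6 of the 10 matched members that rose, against 40.7% of 9006 tested genes. The ETS word CCGGAAG stood in 18 members (30.5%) and in 1 of the 10, against 17.2% of tested genes. The GC box GGGCGG was in 67.8% of members against 64.0%, the E box CACGTG in 11.9% against 10.4%, TATAAA in 10.2% against 7.34%, and the NRF1 word GCGCATGCG in 6.78% against 3.72%. None of these words holds another of them. The median GC content of member windows was 60.0%, against 59.6% for tested genes. Windows with 4 CCAAT boxes were found in Hnrnpl and Hnrnpr, neither called, and in Hnrnpa1 and Hnrnpc, which rose. Those of Hnrnpa1 and Hnrnpc are shown with these boxes in capitals, in gene direction. Each window shown precedes a RefSeq start that lies inside the gene span given above.
Hnrnpa1, chr15:103240147-103240396, plus strand: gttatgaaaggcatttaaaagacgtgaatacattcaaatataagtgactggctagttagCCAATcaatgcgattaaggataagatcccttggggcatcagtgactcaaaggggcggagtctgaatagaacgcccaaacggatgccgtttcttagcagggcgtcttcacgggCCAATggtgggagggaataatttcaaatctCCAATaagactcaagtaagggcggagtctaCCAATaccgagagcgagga
Hnrnpc, chr14:52104022-52104271, minus strand: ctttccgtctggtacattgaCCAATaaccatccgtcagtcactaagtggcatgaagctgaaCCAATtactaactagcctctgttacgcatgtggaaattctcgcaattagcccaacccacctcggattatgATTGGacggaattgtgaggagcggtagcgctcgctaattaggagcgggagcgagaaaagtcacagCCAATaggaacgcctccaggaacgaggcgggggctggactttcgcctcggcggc
Such words are descriptions of the sequence and say nothing of a factor bound there.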

How the data were processed

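Expected counts for RefSeq transcripts came from a table that the authors deposited for 9 RNA-seq libraries. Per the labels' protocols these were built with a KAPA mRNA HyperPrep kit, and the submitters' processing notes name CASAVA 1.8.2, HISAT2 2.1.0 and the build mm10. Which counter was used, and how it dealt with strand and with multiply aligned reads, was not stated in the sources used here. The deposited counts are not normalized and all are multiples of 0.5, so they were rounded to whole numbers (upward at 0.5), where the design had assumed whole counts.

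The row of highest total was kept per gene, with symbols and gene coordinates from RefSeq (GRCm38.p6) and, for 65 rows, GENCODE vM21. For 39 members with several rows the second-highest row held a median of 0.99 of the first. The quasi-likelihood test of edgeR 4.0.16 (R 4.3.3, TMM scaling, robust) was fitted to all 9 libraries and 11256 genes, with Benjamini-Hochberg adjustment over all of them and a threshold of 0.05. CPM use TMM-scaled totals, and per-kilobase values divide them by GENCODE transcript length. The fit was tested on simulated data. The changes simulated were larger than the rise of any member, so that test does not cover calls of this size. DESeq2 1.42.0, limma 3.58.1 and other alternatives are compared in the closing section.

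The members and gene lists were chosen with earlier results of these data known. Genes named were those called, the highest and the 2 of smallest p per class, 12 set names, and the 5 of smallest p where none was called. Members named beyond these were chosen after their values were seen. For the other lists, up to 3 called genes per direction were named. A result that this rule names is not reported here, though counts and medians over members include it.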

Additional observations from a re-analysis of the deposited data

How the results depend on the processing

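In wild-type anti-CD40L against isotype, the 11 members called became 19 by DESeq2 (all 11 among them) and 5 with a replicate block (among them Hnrnpu, Prpf31, Srsf1 and Srsf10), and ran between 0 and 13 without single libraries. They were 11 by limma-voom, 16 with quality weights, 11 with RLE size factors, 9 with library totals only, 13 without a filter (Snrpg among them, lower), 9 in a fit of the 2 groups alone, 10 with the mean row of a gene and 11 with coding rows only, an alternative chosen after seeing the data. Genes called, 1055, became 1635 by DESeq2 and 1698 without a filter, with 486 to 1342 when libraries were left out. For libraries labelled KO against wild-type isotype, members called stayed at 0 under all 19 alternatives, while genes called, 0, became 44 by DESeq2, 38 by limma-voom with quality weights, 102 without a filter and 3 with the 2 groups alone, with 0 to 2 when libraries were left out. For anti-CD40L against libraries labelled KO, the 1 member called became 3 by DESeq2, 4 with quality weights, 2 without a filter, and 0 with library totals only, with the 2 groups alone and with the replicate block. It ran between 0 and 5 without single libraries. Genes called, 769, became 1219 by DESeq2, 1458 with quality weights, 1305 without a filter and 481 with the 2 groups alone, with 346 to 1022 when libraries were left out. The cause of these changes was not tested.

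Of the 28 named fold changes examined, those of Srsf5 and Snrpb in wild-type anti-CD40L against isotype, neither called, changed sign without anti-CD40L replicate 3, and ran between -0.055 and 0.014 and between -0.015 and 0.215 (log2) without single libraries. The members' median in the anti-CD40L comparison stayed at 0.13 to 0.19 over all alternatives. The replicate numbers were not taken to pair libraries, since the labels do not say what a number shares. Same-numbered libraries of wild-type anti-CD40L and isotype correlated at 0.18, 0.0843 and 0.0783. Among pairs of these 2 groups alone, each of the 6 libraries correlated best with its own number (other pairs -0.106 to 0.0129). That is a hint from the data and not the design. With libraries labelled KO, same-numbered correlations ran between -0.149 and 0.0616, and unlike-numbered ones between -0.0892 and 0.178. A call lost under the block is not read as a weaker effect. With 0 to 6 counts of Snrpn per library, no difference in it was detectable at this depth.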
